A study of Caenorhabditis elegans with 2 samples.

Results

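The 3′ ends of the neuropeptide and insulin-like genes of Caenorhabditis elegans were taken from a list of cloned 3′ untranslated regions (3′ UTRs), the stretch of a transcript that follows the stop codon and precedes the poly(A) tail. The members are the genes named flp, nlp or ins in the WBcel235 annotation, 140 protein-coding genes of 19973. A gene was counted as having a 3′ interval when an interval of the list overlapped its stop codon plus 3′ UTR by 10 nt or more, or when the interval's 5′ edge fell in the last 60 nt up to the stop codon's end. By this rule 35 of the 4818 intervals in the list belonged to 34 members. The series set out to find forms of 3′ UTRs by deep sequencing of clones from RACE, the rapid amplification of cDNA 3′ ends. The material was total RNA of N2, the laboratory wild-type strain, from whole worms of mixed stages grown on agar plates with OP50 bacteria. The sample that holds the analysed list was made from 6432 minipools, in which the bacteria transformed by a cloning reaction were kept together. A second run of 49152 barcoded products and 5952 further minipools from the same strain was not analysed here as a list of its own. Whether reads of that run entered the analysed list is not stated in the labels. Only the positions in the list were used, the read depth behind an interval is unknown, and with 1 list there is no replicate error.

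FMRFamide-like peptides (flp genes) and the more varied neuropeptide-like proteins (nlp genes) are made as longer precursors, which are cut by proprotein convertases, trimmed by a carboxypeptidase and, in the flp family, amidated at the C-terminus. They are released from dense-core vesicles and act mostly on G protein-coupled receptors. The insulin-like genes (ins) encode small cysteine-rich peptides that act on a receptor tyrosine kinase, DAF-2, which controls dauer formation, growth and lifespan in this worm. Neurons express most flp and many nlp and ins genes, and some nlp genes encode antimicrobial peptides of the epidermis.

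Positions are given in the numbering of the list, whose genome build the sources used here do not name. That numbering drifts from WBcel235 along each chromosome, and the intervals were compared with genes after a shift found in each 1 Mb window. The shifts at the 35 intervals ran from −4 to 121 nt. The shift of the next window differed by a median of 7 nt and at most by 24 nt, and the distances to stop codons and annotated ends below carry an uncertainty of about that size. In the intervals of all genes that started near a stop codon, the 5′ edge lay a median of 32 nt before its end, with an interquartile range of 27 to 37 nt. In members the median was 35 nt and the range 23 to 56 nt. Each shift was chosen to place edges 32 nt before stop codon ends, and only edges within 60 nt were kept. The medians near 32 nt thus follow from the procedure and are no independent result.

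The list recovered a 3′ end of 34 of 140 members (24.3%, exact 95% interval 17.4 to 32.2), against 21.2% of all protein-coding genes. The counts were unequal between families. Of 31 flp genes 11 had a 3′ interval (35.5%, 19.2 to 54.6), as did 20 of 71 nlp genes (28.2%, 18.1 to 40.1) and 3 of 38 ins genes (7.89%, 1.66 to 21.4). The interval of the flp share and that of the ins share overlapped between 19.2% and 21.4%. Such an overlap does not decide whether the shares differ, and the difference was not tested. The set of genes that had a forward primer was not known here. These shares thus depend on the targets chosen as well as on cloning, and an interval says nothing of how much of a transcript the worms held. Bracketed intervals cover counting error only.

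**Figure D1:**
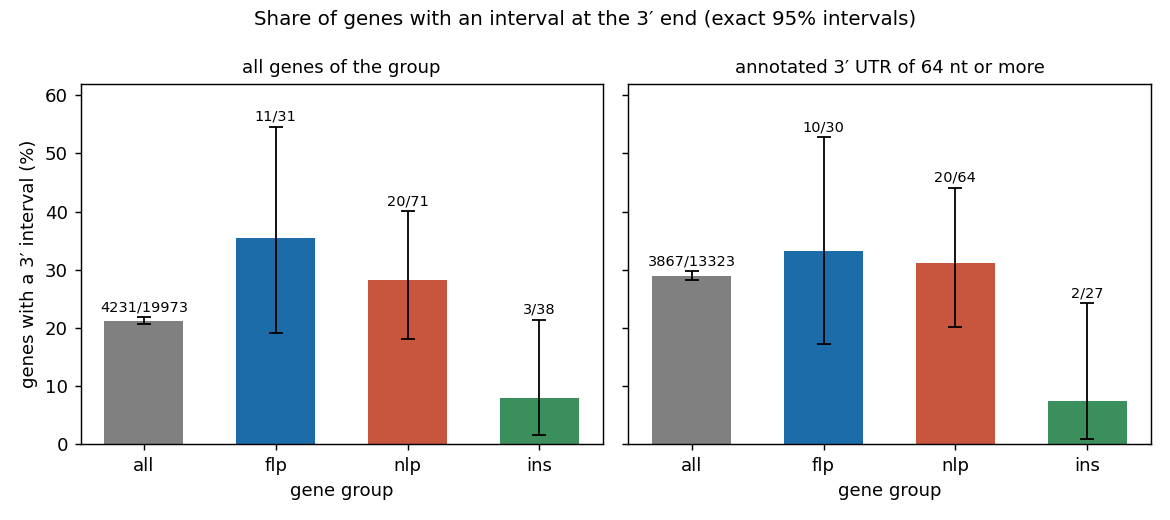
Percent of genes with a 3′ interval (y axis) among all protein-coding genes and the flp, nlp and ins genes (x axis), for every gene of a group (left) and for genes with an annotated 3′ UTR of 64 nt or more (right). Bars are shares from 1 list, and error bars are exact 95% binomial intervals. The numbers above give genes with an interval over genes counted. The ins share is 7.89% on the left and 7.41% on the right.

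The shortest interval in the list was 96 nt long. With the edge 32 nt before the stop codon's end, as set for the shift, a 3′ UTR of about 64 nt is needed to reach that length. This is no strict limit, as edges can lie further upstream. Over all genes the smallest length after the stop codon was 39 nt. Annotated 3′ UTRs under 64 nt, counting the longest model of each gene, occurred in 11 of 38 ins genes (28.9%), in 7 of 71 nlp genes (9.86%) and in 1 of 31 flp genes (3.23%), against 33.3% of all genes. Genes without any annotated 3′ UTR are included as 0 nt. They made up 3179 of the 6650 short models over all genes and 3 of the 19 in members. Without these short models, 2 of 27 ins genes had a 3′ interval (7.41%, 0.91 to 24.3). In the same selection it was 20 of 64 nlp genes (31.2%, 20.2 to 44.1), 10 of 30 flp genes (33.3%, 17.3 to 52.8) and 29.0% of all genes. The part of 3′ UTR length in the ins share was not tested.

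The median annotated 3′ UTR was 214 nt in flp genes, 174 nt in nlp genes and 91.5 nt in ins genes, against 105 nt over all protein-coding genes. Among flp genes the median was 199 nt in those with a 3′ interval and 220.5 nt in those without. Among nlp genes the medians were 175.5 nt and 174 nt. Among ins genes they were 66 nt in the 3 with an interval and 93 nt in those without. Over the 3 families together the medians were 195 nt with an interval and 152 nt without, and over all genes 168 nt and 87 nt. Genes without an annotated 3′ UTR entered all these medians as 0 nt. The coding sequences of members were short, with medians of 277.5 nt in those with an interval and 283.5 nt in those without.

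**Figure D2:**
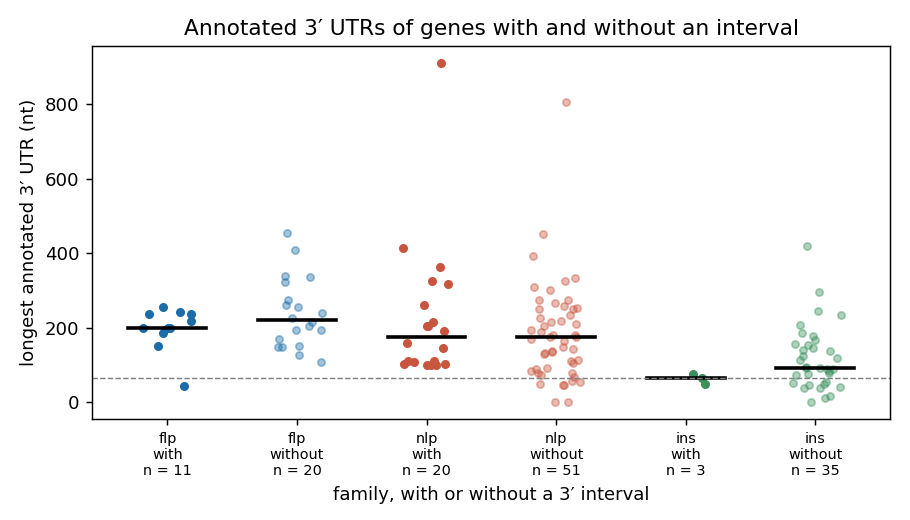
Longest annotated 3′ UTR of each member in nt (y axis), by family and by whether the gene had a 3′ interval (x axis, with the number of genes). Each point is a gene and black bars are medians. The dashed line marks 64 nt. With the edge 32 nt before the stop codon's end, this is about the shortest 3′ UTR to reach the shortest interval listed. Of the 106 members without an interval 17 lie below it, against 33.3% of all protein-coding genes, with or without an interval. Genes without an annotated 3′ UTR are counted as 0 nt.

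Of the 106 members without an interval, 89 had an annotated 3′ UTR of 64 nt or more, 20 of them flp, 44 nlp and 25 ins genes. With or without an interval, 121 of 140 members had such a 3′ UTR, as did 13323 of 19973 protein-coding genes. The X chromosome held the most members with an interval, 12 of 34 (35.3%, against 21.2% of all genes on X), followed by chromosome V with 8 of 23 (34.8%, against 14.5% of all genes there). On chromosome IV it was 4 of 19 (21.1%, against 20.8%). Members were below all genes on chromosome I with 3 of 19 (15.8%, against 26.0%), on II with 3 of 28 (10.7%, against 21.2%) and on III with 4 of 17 (23.5%, against 28.9%). None of these differences was tested. The 15 ins genes of chromosome II, where 21.2% of all genes had an interval, had none, which allows a share of up to 21.8%, and ins-6, which encodes a DAF-2 agonist, was among them.

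Of the 35 intervals, 28 started within 60 nt before the end of a stop codon of the member, which named 27 genes. In 25 of the 28 no other gene met the rule. The remaining 7 members (of 34, against 22.6% of all genes with an interval) were found by overlap alone. Interval lengths ran from 103 nt (flp-4) to 453 nt (nlp-35), with a median of 203 nt, against 183 nt over the whole list. The length after the stop codon had a median of 194 nt in the 27 members with an interval at the stop codon (order-statistic 95% interval 109 to 228 nt), against 156 nt in 3276 genes. Without the intervals that also met the rule for another gene the members' median was 157 nt, in which nlp-21 counts with 99 nt from its second interval, described below.

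The 8 flp intervals at a stop codon held 149 to 260 nt after it, with a median of 196.5 nt. The longest was that of flp-9, with 260 nt after the stop codon (chromosome IV, 12754527 to 12754827), 4 nt past the annotated end. It was followed by flp-7, whose peptide acts in serotonin-driven fat loss, with 212 nt (X, 5886548 to 5886792). flp-24, which encodes a peptide of the sleep-promoting ALA neuron, had 200 nt (III, 725912 to 726152). These 3 ended within 6 nt of the annotated transcript end. flp-22 had 197 nt (I, 8659726 to 8659958) and flp-5 196 nt (X, 8530727 to 8530976), and each also ended within 3 nt of an annotated end. The shortest were flp-8, with 149 nt (X, 14881993 to 14882195), flp-14, with 151 nt, and flp-2, a peptide gene of arousal, with 194 nt. flp-8 has 2 annotated stop codons 50 nt apart, and its length is 199 nt when counted from the other one.

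The shorter nlp products included those of the epidermal genes. Those of nlp-28, nlp-29, nlp-30, nlp-31 and nlp-33, related genes of the epidermis whose peptides act against fungi, held 94 to 109 nt after the stop codon. nlp-28 had 94 nt (V, 3988170 to 3988302), the shortest of the family, nlp-30 95 nt (V, 3982604 to 3982729), nlp-29 102 nt (V, 3984690 to 3984834) and nlp-31 103 nt (V, 3980477 to 3980620). nlp-33, further along chromosome V (11147573 to 11147717), had 109 nt. The first 4 lie in 1 cluster of 6 nlp genes that spans 10946 nt, and the intervals of all 5 ended within 9 nt of the annotated end. Of the rest of the cluster, nlp-27 has an annotated 3′ UTR of 57 nt and nlp-34 one of 78 nt, and neither had an interval. This group of epidermal genes was picked after its values were seen.

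The other 10 nlp intervals that met the rule for 1 gene had a median of 217.5 nt after the stop codon. Among these is the second interval of nlp-21, described below, with 99 nt, which ended at the edge of an intron. The longest was that of nlp-49, whose peptide acts on the receptor SEB-3 in locomotion and arousal, with 357 nt (X, 5904912 to 5905303). Next came nlp-14, a gene of stress-induced quiescence, with 320 nt (X, 8917361 to 8917721), and nlp-6, with 301 nt (X, 17663508 to 17663835). Each of these 3 ended within 10 nt of an annotated end. nlp-3, whose peptides of the HSN neuron promote egg laying, had 207 nt (X, 13177788 to 13178032), and nlp-1, a peptide gene of the AWC olfactory neuron, had 157 nt (X, 3728242 to 3728431). Shorter ones were nlp-57 with 112 nt and nlp-64 with 106 nt. Their ends lay 9, 3, 2 and 6 nt from the annotated ones in the order nlp-3, nlp-1, nlp-57 and nlp-64.

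Only 3 ins genes met the rule. ins-18, reported to antagonise DAF-2, had 67 nt after the stop codon (I, 8149540 to 8149645) and ended 1 nt from its annotated end. ins-8 had 77 nt (IV, 9680288 to 9680394) and ended 27 nt past its annotated end, beyond a 3′ UTR annotated as 50 nt. Its neighbour ins-7, an agonist gene of intestine and neurons whose annotated 3′ UTR measures 52 nt, had no interval. The interval of ins-10 (V, 14034358 to 14034604) overlapped its 3′ UTR by only 19 nt, and its other edge lay 31 nt upstream of the last base of the stop codon of vps-39 on the opposite strand, so 2 ins genes had an interval of their own. By a distance of 10000 nt set after the data were seen, 25 ins genes lay in 7 clusters. Of these 25, ins-8 alone had an interval. Of 12 clustered nlp genes 4 had one, all in the cluster of 6 described above, and the other nlp clusters had none. Over all protein-coding genes, clustered or not, the share was 21.2%.

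**Figure D3:**
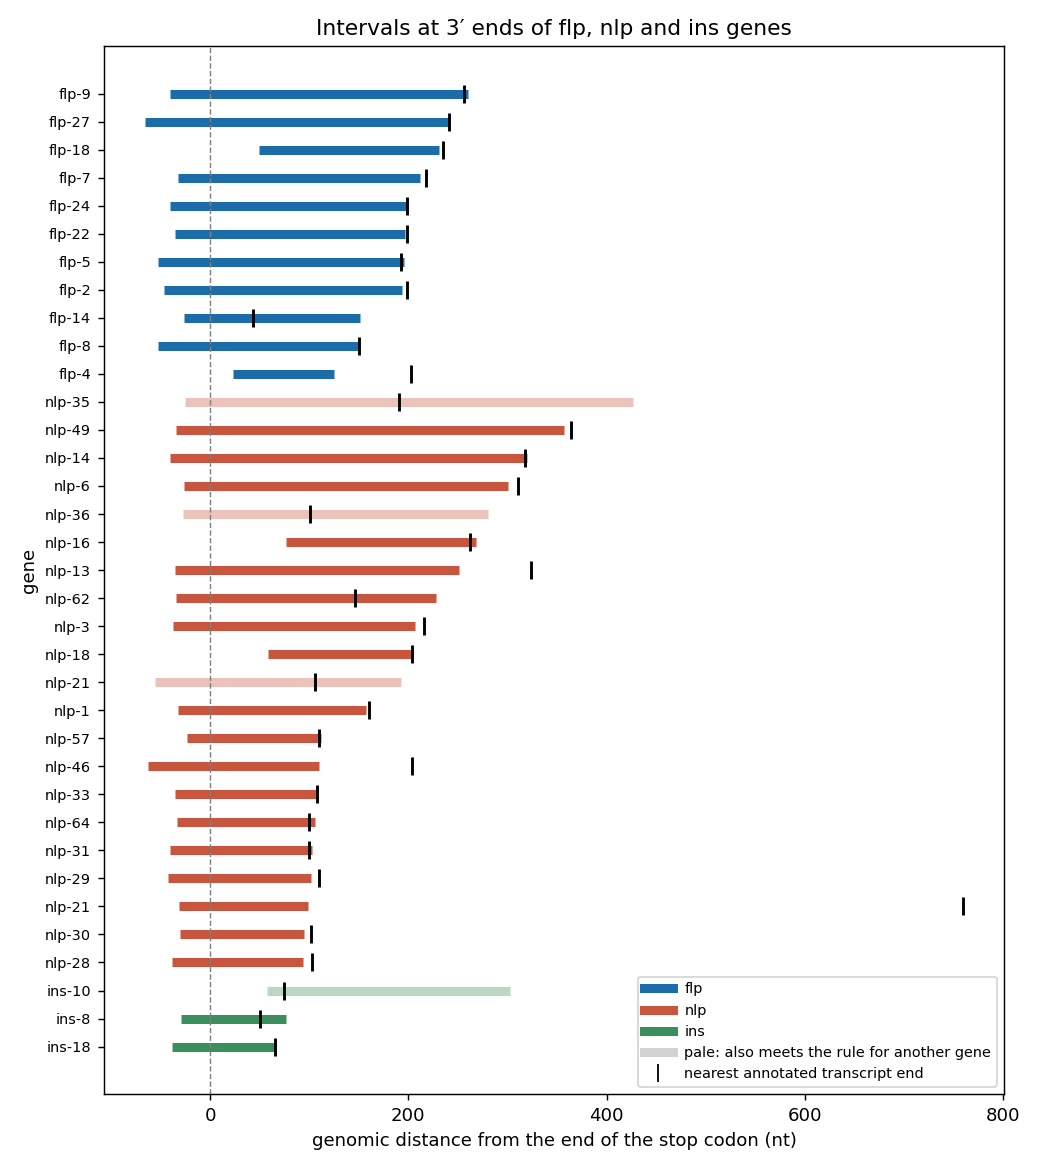
Each horizontal bar is an interval at a 3′ end of a member (y axis), drawn from its 5′ to its 3′ edge against the genomic distance from the end of the stop codon in nt (x axis), with the nearest annotated transcript end as a black tick. Pale bars also met the rule for another gene; nlp-21 appears once for each of its intervals, each measured from the stop codon nearest to its edge, and most bars end at their tick while those of flp-14 and nlp-62 run past it, the latter by 82 nt.

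Interval ends were set against the annotated ends of each gene's transcripts. Of the 27 members with an interval at the stop codon, 20 ended within 20 nt of an annotated end (74.1%, 53.7 to 88.9), against 59.9% of all such genes. These 20 lay within 10 nt of it. A further 6 members (22.2%) ended more than 20 nt downstream, against 19.0% of all such genes, and 1 (3.7%) more than 20 nt upstream, against 21.1%. The annotation may itself hold evidence from these clones, which the sources used here do not settle, and its independence is therefore unknown.

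**Figure D4:**
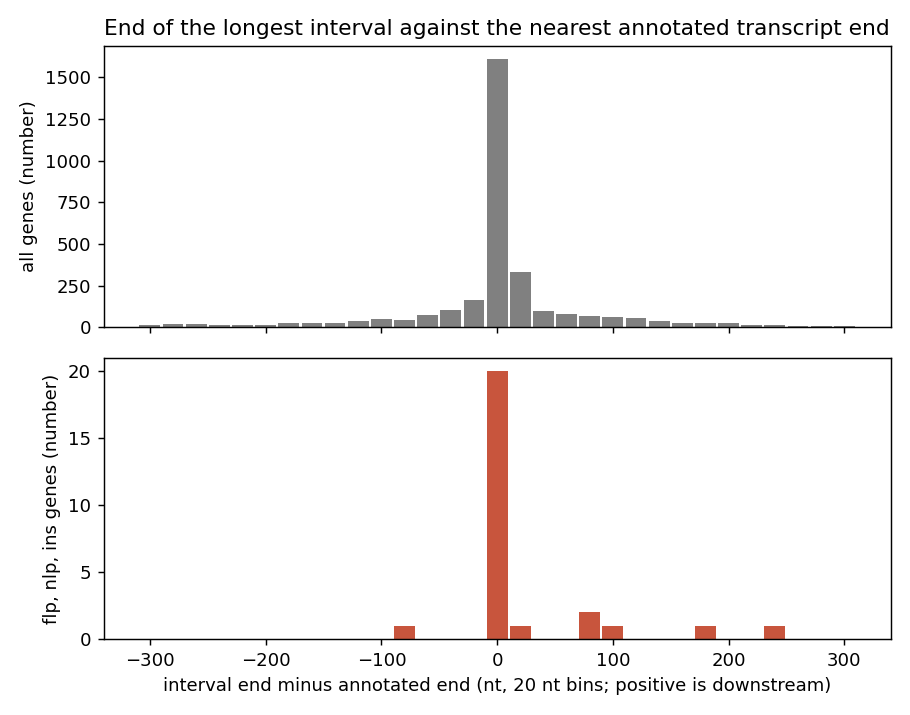
Number of genes (y axis) by the distance from the nearest annotated transcript end to the end of their longest interval at a stop codon, in nt and in bins of 20 nt (x axis, positive is downstream), for all 3276 genes (top) and the 27 members (bottom). The central bin holds 20 members; 167 genes of the top panel lie beyond 310 nt on either side and are not drawn, and no member does.

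Among the downstream ends, 3 belonged to intervals that met the rule for the member alone. flp-14 held 151 nt after the stop codon where the annotation has a 3′ UTR of 43 nt (III, 12914593 to 12914770), the farthest overshoot of the 3. nlp-62 ended 82 nt past it, with 228 nt after the stop codon against 146 nt annotated (I, 5854121 to 5854383). The third was ins-8, described above. These distances exceed the step to the next window's shift, which was 2 nt for flp-14, 5 nt for nlp-62 and 7 nt for ins-8.

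The other 3 downstream ends lay in intervals that also started at a stop codon of a gene on the opposite strand, seen from the other edge. They were nlp-35 with C33A12.19 (IV, 9518109 to 9518561, 236 nt past the annotated end), nlp-36 with dars-1, an aspartyl-tRNA synthetase gene (III, 9488958 to 9489265, 179 nt), and nlp-21 with subs-4 (III, 11388417 to 11388666, 87 nt). In these 3 the edge lay 25, 27 and 56 nt upstream of the last base of the member's stop codon and 45, 44 and 34 nt before that of the other gene. The strand column of the list was not used, so which gene the product came from was not resolved here. With ins-10 the shared intervals numbered 4 of 34 members, against 23.6% of all genes with an interval.

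Upstream ends were found in nlp-13, whose interval held 251 nt after the stop codon and ended 73 nt before the annotated end of a 324 nt 3′ UTR (V, 4237680 to 4237966), and in 2 members found by overlap. nlp-46 ended 94 nt before its annotated end (V, 12505132 to 12505305), with the 5′ edge 63 nt upstream of the stop codon's last base, just outside the 60 nt limit. flp-4 ended 78 nt before the nearest annotated end, and its interval of 103 nt started 23 nt after the stop codon (II, 10055304 to 10055406). A further upstream end was that of the second nlp-21 interval, described below, 661 nt before the nearest annotated end.

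Of the other members found by overlap, ins-10 was described above, with an interval end 228 nt past its annotated end, and flp-18 is described below. flp-27 started 66 nt upstream of the stop codon's last base, also just outside the limit, and ended 0 nt from the annotated end (II, 5682333 to 5682640). nlp-18 (II, 11027886 to 11028033) and nlp-16 (IV, 6255049 to 6255240) started 58 and 77 nt downstream of a stop codon, inside the 3′ UTR, and ended 1 and 6 nt past an annotated end. Just inside the limits lay flp-5 and flp-8, with the edge 53 nt upstream of the stop codon's last base, and just outside lay flp-16, of which an interval given to romo-1 on the other strand covered 2 nt.

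Only nlp-21 had more than 1 end by position (1 of 34, against 2.03% of all genes with an interval). Its second interval (III, 11389165 to 11389295) started 31 nt upstream of the last stop codon base of another annotated form, whose stop codon lies in an upstream exon and whose 3′ UTR carries an intron of 499 nt. The gap between the intervals was 498 nt long, and its edges lay 1 and 0 nt from those of that intron. The end of the second interval thus lay at the intron's edge, 661 nt before the nearest annotated end, though it is counted as an end here. By position the gap thus matches the intron of that form, but the first interval also met the rule for subs-4. The strand column was not used, and whether both intervals came from 1 spliced nlp-21 transcript was not resolved here.

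The same layout occurred in flp-2. Its 3′ interval (X, 10094367 to 10094607) was followed, towards the start of the gene, by a fully coding interval of 161 nt (X, 10094813 to 10094973) that the rule did not take. The gap of 205 nt matched an annotated intron of 206 nt with edges 1 and 0 nt away, so its 5′ edge, 46 nt upstream of the stop codon's last base, lay at a splice site. In flp-18, which encodes ligands of the receptors NPR-1, NPR-4 and NPR-5, the annotation places an intron of 49 nt in the 3′ UTR. The interval (X, 3012174 to 3012356) started 49 nt after the end of the stop codon and 4 nt from the edge of that intron, and it ended 4 nt from an annotated end. A further interval of 214 nt in flp-18 (X, 3012942 to 3013155) lay upstream and held 158 coding nt. With nlp-6, in which the edge lay 10 nt from a splice site, 4 of 34 members had a 5′ edge within 10 nt of one, against 7.99% of all genes with an interval.

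The genes that process, release and receive these peptides were counted by lists of symbols. Of 9 precursor processing genes 5 had a 3′ interval (55.6%, 21.2 to 86.3), against 21.2% of all genes. egl-3, the proprotein convertase PC2, was found by overlap alone and ended 82 nt before an annotated end. egl-21, the carboxypeptidase E, had 194 nt after the stop codon, and pgal-1 and pghm-1, which carry the parts of the amidating reaction, had 70 and 115 nt. The pgal-1 interval also met the rule for F21F3.6, and that of pghm-1 ended 51 nt before the nearest annotated end. bli-4, a convertase of cuticle formation, had 195 nt and ended 40 nt past the nearest annotated end. Of 9 other peptide genes 3 met the rule (33.3%, 7.49 to 70.1, against 21.2% of all genes). They were pdf-1 (pigment-dispersing factor), snet-1 and ntc-1, the oxytocin-related nematocin gene. snet-1 had 336 nt after the stop codon, while pdf-1 and ntc-1 were found by overlap alone. The pdf-1 interval of 271 nt ended 15 nt past an annotated end. The ntc-1 interval ended 453 nt past its annotated end and also met the rule for tsp-14.

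Of 12 insulin signalling genes 5 had a 3′ interval (41.7%, 15.2 to 72.3, against 21.2% of all genes). All 5 had it at a stop codon, with a median of 396 nt after it. They were pdk-1 with 493 nt, akt-2 with 399 nt, akt-1 with 396 nt, ist-1, an insulin receptor substrate gene, with 387 nt and age-1, the phosphoinositide 3-kinase, with 302 nt. The intervals of pdk-1 and akt-1 also met the rule for F21E9.2 and rop-1, and that of age-1 ended 78 nt before the nearest annotated end. The ligand genes ins-8 and ins-18 had 77 and 67 nt, below each of these 5 values. Of 12 vesicle release genes 3 had one (25%, 5.49 to 57.2, against 21.2%). They were unc-13 (386 nt), snb-1, the synaptobrevin gene (447 nt), and ric-4, the SNAP-25 gene (164 nt, 188 nt before its annotated end). Of 96 peptide receptor genes 9 had one (9.38%, 4.38 to 17.1, against 21.2%), with a median of 139.5 nt after the stop codon in 8. They were npr-5, npr-25, npr-26, npr-29, dmsr-1, dmsr-2, dmsr-4, tkr-1 and frpr-15, the last found only by overlap with an interval that also met the rule for parn-1. The interval of tkr-1, a tachykinin receptor gene, ended 156 nt past its annotated end and also met the rule for slc-17.2. Those of npr-25 and npr-26 ended 32 and 46 nt before the nearest annotated end, and that of frpr-15 33 nt past it.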

How the data were processed

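Total RNA of mixed-stage N2 worms gave cDNA primed with oligo-dT, from which 3′ UTRs were amplified with transcript-specific forward primers, cloned and pyrosequenced, per the labels' protocols. The authors deposited a list of intervals without a header. Its score column, deposited as 0 in each row, was not used, and neither was the strand column. How reads were assembled, aligned and filtered, and on which genome build, was not given in the sources used here. Genes came from Ensembl release 115 (WBcel235).

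In each 1 Mb window of the list, the shift was taken that placed most interval edges 32 nt before a stop codon end, on both strands, with a Gaussian weight (SD 6 nt) and up to 6000 nt either way. In 5 of 103 windows with a weight under 5 the surrounding 3 Mb were used. No member with an interval lay in these. Past 18 Mb of chromosome V, where shifts were 37, 45 and 4614 nt, lay 4 members and none had an interval. An interval counted for each gene that met the rule. Ends at most 20 nt apart were joined, and the longest interval at the stop codon was used per gene. Lengths are genomic and include introns. Shares have Clopper-Pearson 95% intervals and medians order-statistic intervals. Without replicates no test was made. The functions were tested on simulated data. Tools were Python 3.11.15, numpy 2.4.6, scipy 1.17.1 and matplotlib 3.10.9.

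The members and lists were chosen with earlier results of these data known. Each member with an interval is named, with positions for the 3 longest and 3 shortest of a family, those with more than 1 interval, ends over 20 nt from an annotated one, or a shared interval. The planned count of polyadenylation hexamers needs a genome sequence and was not run.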

Additional observations from a re-analysis of the deposited data

How the results depend on the processing

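Of 105 comparisons of 12 counts, shares and medians with their values under 12 other settings (1 chosen after seeing the data), 103 stayed within the 95% interval of the value reported or within 1.5 times the count. The 95% intervals are wide for small groups, so a large change can pass and the count of 103 says little of stability. With the stop codon near the edge required, the share of other peptide genes went from 33.3% to 11.1% and still passed. Without a shift, members ending within 20 nt of an annotated end went from 74.1% to 58.8% and passed too. The median length after the stop codon in members was then 106 nt, over 17 genes. Without a shift fewer edges lie near a stop codon. When an interval that meets the rule for several genes was given to the only gene with its stop codon near an edge, and to none where several had one (as for nlp-35, nlp-36 and the first interval of nlp-21), 31 members had an interval (22.1%) and the count of members with more than 1 end was 0. The cause of the latter lies in the setting itself, which drops the interval shared by nlp-21 and subs-4. With the stop codon near the edge required, 27 members (19.3%) had an interval. With an edge limit of 40 nt, the length after the stop codon was 199 nt in flp-8 and 99 nt in nlp-21, and without a shift it was 287 nt in flp-9, 99 nt in ins-8, 88 nt in nlp-33 and 449 nt in nlp-35. No paired analysis was possible because only 1 list was analysed. The read depth is unknown, so a missing interval cannot be told apart from a gene without a primer or with too few reads.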
